A study of Gallus gallus with 3 samples.

Results

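Gene expression was examined for the autosomal genes that differed most between cultures of chicken (Gallus gallus) primordial germ cells (PGCs). A gene was taken when the PGC library with the larger count held at least 100 counts, when its CPM (the count divided by the library's total and multiplied by 1000000, with 0.1 added) was at least 3-fold apart between PGC replicate 2 and PGC replicate 3, and when it lay on no sex chromosome and not on the mitochondrial genome. The rule took 86 of the 9717 autosomal genes with that many counts, and 19152 genes were counted in all. That is 0.885% of the eligible genes, with 46 genes (0.473%) higher in PGC replicate 2 and 40 genes (0.412%) higher in PGC replicate 3. The genes were thus chosen by the ratio of CPM between the PGC libraries, which is given as a description without a test. The rule did not use the embryonic stem cell (ESC) library. PGCs were compared with it by a test that shares the PGC values with the rule.

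The study profiled cultured migratory PGCs and, as a somatic counterpart, cultured ESCs by sequencing of total RNA. Of the 3 PGC and 2 ESC replicates named in the paper, those with a sample label were used, namely PGC replicates 2 and 3 and ESC replicate 2. Their libraries were made by the same provider from cells for which the sources used here name no treatment, strain, sex, passage or culture age. The study's methods call the replicates biological, without saying whether the PGC replicates came from separate embryos or from one line, so that p-values measure the spread between these samples only. In such bulk samples fewer cells of a type and less RNA per cell cannot be told apart.

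Avian PGCs are set aside before gastrulation, travel through the embryonic blood to the genital ridges and give rise to eggs and sperm. They can be taken from the blood and kept in culture, where their growth depends on FGF signalling through the MAP kinase ERK. Germ cells are marked by RNA-binding proteins such as DAZL and DDX4 and by the piRNA pathway, which silences transposons, whereas meiosis genes are used later, when the cells divide to form gametes.

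Depth was alike, at 19754278 and 20401551 counts for the PGC libraries, against 20568106 counts for the ESC library. The germ cell label held in both PGC libraries: 9 marker genes summed to 4920 CPM in PGC replicate 2 and 4602 CPM in PGC replicate 3, against 317.5 CPM in the ESC library, and DAZL had 2322 and 2317 CPM, against 0.778 CPM. The PGC libraries differed by more than counting error, with a chi-square of 44.5 per gene over 14480 genes. Over the eligible autosomal genes the log2 ratio of PGC replicate 2 to PGC replicate 3 had a median of 0.15 (SD 0.44), so that the typical gene was slightly higher in PGC replicate 2 and each ratio below is to be read against that shift. The sex chromosomes, which the rule left out, differed as well. Of 20 W-linked genes 18 were at least 3-fold apart, with a median log2 ratio of 3.26, and W-linked counts summed to 15115 in PGC replicate 2 and 5974 in PGC replicate 3, against 2802 in the ESC library. Over 521 Z-linked genes the median log2 ratio was −0.14 and 8 were at least 3-fold apart. The sources used here name no sex, so a difference in sex between the PGC cultures cannot be told apart from other differences between them. That holds for the autosomal ratios as well, and the part of sex was not tested. Mitochondrial genes took 4.44% and 6.54% of the counts of the PGC libraries and 10.1% of those of the ESC library.

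**Figure D1:**
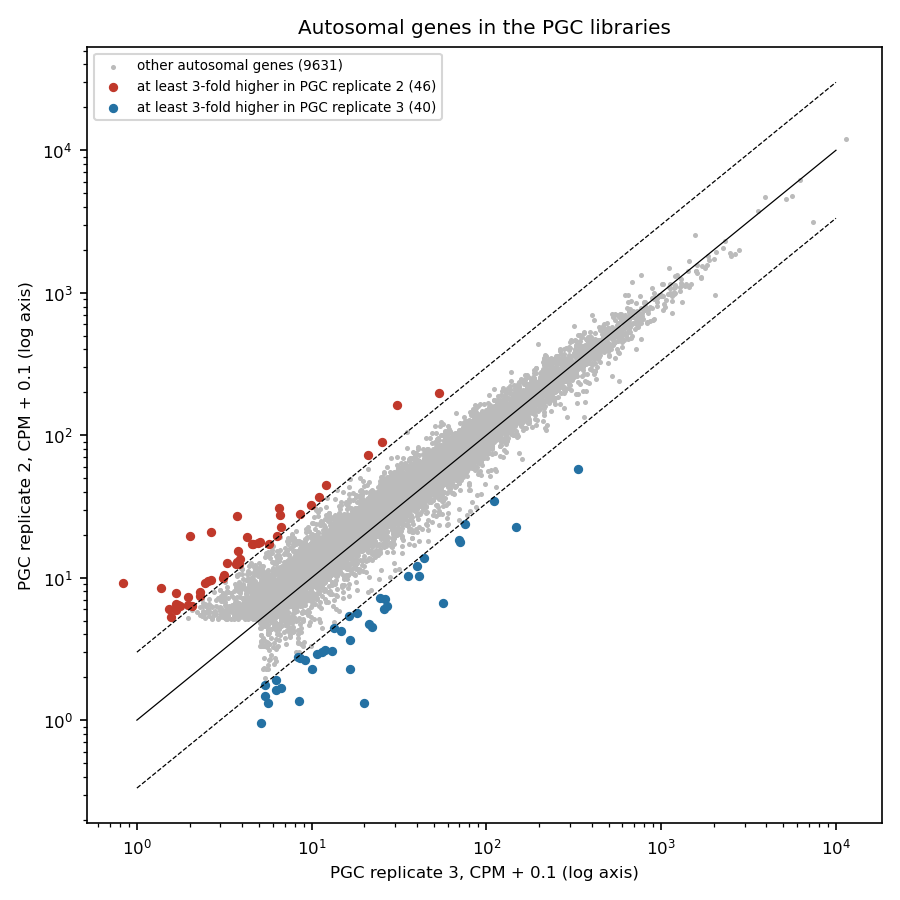
Expression of 9717 autosomal genes in PGC replicate 2 (vertical axis) and PGC replicate 3 (horizontal axis), as CPM with 0.1 added on log axes. Each point is a gene, the solid line marks equal values and the dashed lines a 3-fold difference, with 46 genes above the upper dashed line and 40 genes below the lower one.

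The genes on either side of the threshold were not separated by a gap in PGC replicate 2. Among named genes, just inside it lay RAB18L (3.01-fold), TRPM8 (3.07-fold) and EYA2 (3.10-fold). Just outside it lay CLDN15 (2.99-fold), SYNE1 (2.99-fold, with 2082 against 719 counts) and FRMD4B (2.98-fold). Among named genes higher in PGC replicate 3, DUSP4 (3.02-fold) and NKAIN1 (3.07-fold) were near the threshold on the inside. CXCL12 (2.84-fold), SLIT1 (2.84-fold) and SFRP1 (2.78-fold) were the nearest named genes outside. Genes without a name were not ranked beside the threshold.

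In both sets a few genes stood far from the rest. The 46 genes higher in PGC replicate 2 differed by 3.01-fold to 11.0-fold, with a median of 3.62-fold, and 6 of them by at least 5-fold. For the 40 genes higher in PGC replicate 3 the range was 3.01-fold to 15.1-fold and the median 3.84-fold, with 7 genes at 5-fold or more. The lower library still held at least 15 counts for every gene, so no gene was silent in one of the PGC libraries. The lowest lower bound among the 95% exact binomial intervals was 2.15. Here and below these intervals are of the CPM ratio without 0.1 added, unlike the folds, and they cover counting error only. In the higher PGC library 56 of the genes reached 10 CPM and 30 did not, and all 86 together took 0.148% and 0.171% of the counts of the PGC libraries and 0.155% of those of the ESC library.

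Scaling decided which library appeared to hold more of these genes. With TMM factors, which place the typical gene at a log2 ratio of 0.00, the rule again took 86 genes, 76 of them shared, but 36 (41.9%) were higher in PGC replicate 2 and 50 in PGC replicate 3, in place of 46 (53.5%) and 40. With the size factors in the authors' table there were 84 genes (40 and 44), 80 of them shared. All 86 genes taken by the rule kept their direction under both scalings, whose shifts were too small to reverse a 3-fold ratio.

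Set against the ESC library, the genes higher in PGC replicate 2 mostly had their lowest level in the ESC library, which held under 10 counts for 18 of the 46. Their median was 13.1 CPM in PGC replicate 2 and 3.60 CPM in PGC replicate 3, against 0.948 CPM in the ESC library. The ESC library lay below both PGC libraries for 38 of the 46, between them for 5 and above both for 3. Over the 6603 eligible genes with any excess in PGC replicate 2 it lay below both for 64.3%. The ESC library held no more than 3 counts, the floor set by what an observed count of 0 still permits, for 12 of the 46 genes (26.1%), against 1.07% of the eligible genes. These sets were not matched for level. In the higher PGC library 6312 of the 9717 eligible genes had at least 500 counts, against 11 of the 46.

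The genes higher in PGC replicate 3 were divided. Their median was 4.23 CPM in PGC replicate 2 and 16.5 CPM in PGC replicate 3, against 7.80 CPM in the ESC library. The ESC library lay below both PGC libraries for 17 of the 40, between them for 10 and above both for 13. Over the 3114 eligible genes with any excess in PGC replicate 3 these shares were 40.5% below and 50.2% above. The median log2 ratio of the PGC mean to the ESC library was −0.15 for these 40 genes. It was 0.91 without PGC replicate 2 and −1.08 without PGC replicate 3. Its direction thus followed the library, a shift set by the rule that took these genes. For the genes higher in PGC replicate 2 it was 2.86 (1.88 without replicate 2 and 3.84 without replicate 3).

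The comparison of PGCs with ESCs was tested with edgeR over 14489 genes, of which 21.2% were called higher and 20.6% lower in PGCs at an adjusted p under 0.05. Of the 46 genes higher in PGC replicate 2, 28 (60.9%) were called higher in PGCs and 3 (6.52%) lower. Of the 40 genes higher in PGC replicate 3, 9 (22.5%) were called higher and 11 (27.5%) lower, which is close to the background in both directions. In all, 51 of the 86 genes were called, 37 higher and 14 lower, and 57 had an unadjusted p under 0.05. Over the 9717 eligible genes 22.6% were called higher and 20.8% lower. Both the PGC mean and the spread in this test came from the PGC pair, which the rule chose to be far apart for these genes, and the single ESC library was assumed to vary like it. The calls for these genes are therefore not independent of the rule and, here and below, describe the 3 libraries. DESeq2 called 44 of the 86 genes and left out 8 that edgeR called.

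**Figure D2:**
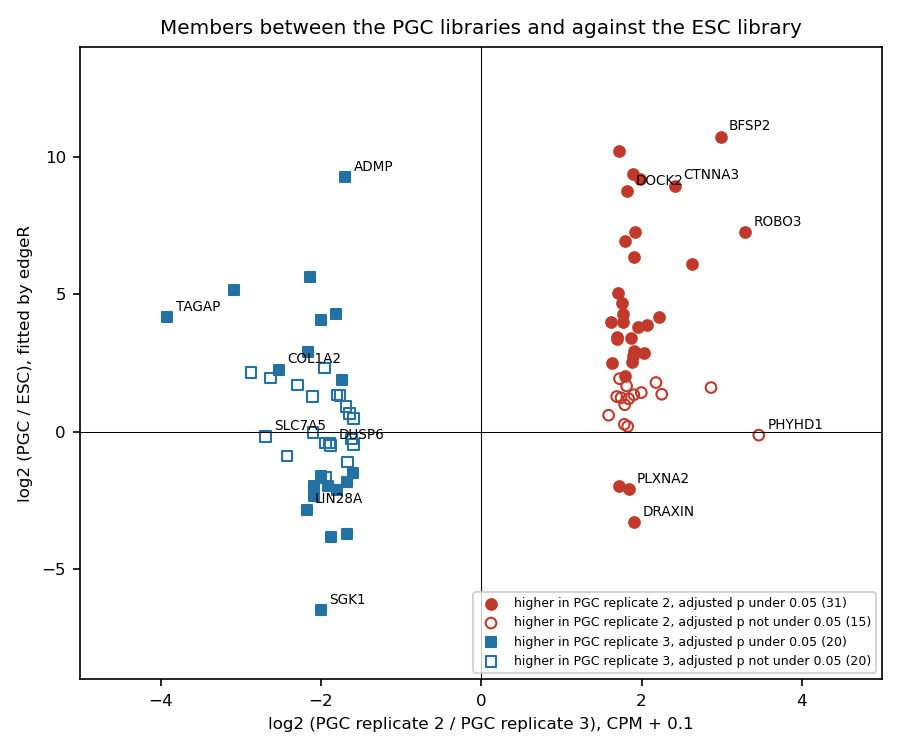
Fitted log2 difference of PGCs over ESCs from edgeR (vertical axis) against the log2 ratio of PGC replicate 2 over PGC replicate 3 with 0.1 CPM added (horizontal axis), for 86 genes. Circles are the 46 genes higher in PGC replicate 2, of which 31 passed an adjusted p of 0.05 (filled), and squares the 40 genes higher in PGC replicate 3, of which 20 passed. Fitted values of genes with 0 to 3 counts in the ESC library depend on the prior count of the fit.

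Genes of germ cells and sperm were among those higher in PGC replicate 2. All 5 had the ESC library below both PGC libraries, and 4 were called higher in PGCs. GTF2A1L (ENSGALG00000026747, chromosome 3, 7644760 to 7656111, galGal5), which in mammals encodes a germ cell form of the general transcription factor TFIIA, was the most abundant. It had 32.3 CPM in PGC replicate 2 and 9.80 CPM in PGC replicate 3, against 0.486 CPM in the ESC library, and a log2 difference from ESCs of 5.07 ± 0.78 (SE, edgeR adjusted p = 0.000850). REC114 (ENSGALG00000044207, chromosome 10, 2096926 to 2114097), needed in mice for the DNA breaks that start meiotic recombination, had 13.4 and 3.77 CPM in the PGC libraries (264 and 77 counts), against 1 count in the ESC library (edgeR adjusted p = 0.00129). Its exons overlap those of NPTN on the other strand by 162 bases, so its counts are uncertain. Both PGC cultures were thus well above the ESC library for these genes. Of all 46 genes on this side, 82.6% had the ESC library below both PGC libraries and 60.9% were called higher in PGCs. These shares are to be set beside each group count on this side.

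The sperm genes of the set were rarer. TSGA10, whose protein sits in the mammalian sperm tail, had 12.6 and 3.19 CPM in PGC replicates 2 and 3, against 0.438 CPM in the ESC library (log2 difference 3.80 ± 0.88 SE, edgeR adjusted p = 0.00734). SPA17, a protein of the mammalian sperm surface and flagellum, had 9.42 and 2.45 CPM, against 0.681 CPM in the ESC library (2.76 ± 0.83 SE, edgeR adjusted p = 0.0233). DNAH5, a motor protein heavy chain of cilia and flagella, had 10.3 and 3.04 CPM, against 1.36 CPM in the ESC library, and missed the threshold (1.93 ± 0.71 SE, edgeR adjusted p = 0.0519). The ESC library lay outside the range of the PGC libraries for all 3, as it did for 89.4% of all eligible genes.

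Lists of well-known germ cell genes are made up mostly of genes that the rule did not take, so smaller ratios on them follow from the rule. The 16 eligible meiosis genes had a median log2 ratio of 0.71 between the PGC libraries, against 0.15 over all eligible genes. Of the 16, 14 lay above that overall median. None of the 16 was 3-fold apart. Over all eligible genes 0.885% were, a share to be set beside this and each such list count below. HORMAD2, a protein of the meiotic chromosome axis, came nearest with 11.3 and 3.87 CPM, against 0.583 CPM in the ESC library. It was followed by HFM1, a meiotic helicase, with 13.8 and 5.29 CPM, against 0.826 CPM, and SYCP3, a component of the synaptonemal complex, with 116 and 50.6 CPM, against 4.03 CPM. REC114 was not on that list, and its larger ratio follows from the rule that took it. Against ESCs 14 of the 16 were called higher in PGCs and 0 lower.

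On the list of 24 germ cell and piRNA genes the median log2 ratio was 0.48, with 15 genes above the median of all genes and 9 below it. The piRNA genes TDRD15 (0.88) and TDRD9 (0.79) were on the side of PGC replicate 2, while DAZL, at 0.00, was below the median of all genes. LIN28A was the only one of the 24 to be 3-fold apart, on the side of PGC replicate 3. Of the 24 genes 16 were called higher in PGCs and 4 lower.

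Genes of cell junctions, the cytoskeleton and the matrix made up the largest group higher in PGC replicate 2. Of these 11 genes 10 had the ESC library below both PGC libraries, and 7 were called higher in PGCs. Over all 46 genes on this side these counts were 38 and 28. CTNNA3 (ENSGALG00000002845, chromosome 6, 6694536 to 7131100), which encodes alpha-T-catenin, a link between cadherins and actin, had 3232 counts in PGC replicate 2 and 625 counts in PGC replicate 3, against 3 counts in the ESC library. That is 164 and 30.6 CPM, a 5.33-fold difference between the PGC libraries (95% interval 4.90 to 5.83), and PGCs were called higher than ESCs (edgeR adjusted p = 0.000462). It was therefore a gene of both PGC cultures that differed in amount between them. PKP2, a desmosomal plaque protein, had 30.7 and 6.37 CPM, against 5.59 CPM in the ESC library, so that PGC replicate 3 was at the level of the ESC library (log2 difference 1.37 ± 0.70 SE, edgeR adjusted p = 0.138).

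Intermediate filament genes also belonged to it. BFSP2 (ENSGALG00000034585, chromosome 2, 42762444 to 42777858), known for the beaded filaments of the lens, had 413 counts in PGC replicate 2 and 52 counts in PGC replicate 3, against 0 counts in the ESC library. It was 7.93-fold apart between the PGC libraries (95% interval 6.14 to 11.2) and at least 80.4-fold higher in the PGC mean than in the ESC library, taken at the floor of 3 counts (edgeR adjusted p = 0.00366). Its exons overlap those of TMEM108 on the same strand by 64 bases. SYNM, which encodes synemin, a filament protein of muscle, had 27.7 and 8.53 CPM, against 5.83 CPM in the ESC library (log2 difference 1.28 ± 0.57 SE, edgeR adjusted p = 0.0935). The cytoskeletal genes MYO3B, an unconventional myosin with 22.6 and 6.57 CPM, against 0.583 CPM, and FRMD5, a FERM domain protein with 9.87 and 2.99 CPM, against 0.486 CPM, were both called higher in PGCs (edgeR adjusted p = 0.00218 and 0.00915).

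The matrix genes of this group were rare in the ESC library. FAP, a cell surface protease known from activated fibroblasts, had 27.3 and 6.47 CPM in PGC replicates 2 and 3, against 0.875 CPM in the ESC library (log2 difference 3.90 ± 0.82 SE, edgeR adjusted p = 0.00442). COL28A1, a collagen, had 17.2 and 4.51 CPM, against 2 counts in the ESC library (edgeR adjusted p = 0.00137), and TNN, a tenascin, had 9.57 and 2.55 CPM, against 0.438 CPM (edgeR adjusted p = 0.0114). COLGALT2, which adds galactose to collagen, had 17.8 and 4.95 CPM, against 7.78 CPM in the ESC library. It was the exception in the group, with the ESC library between the PGC libraries.

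Axon guidance genes higher in PGC replicate 2 went both ways against ESCs. ROBO3 (ENSGALG00000045816, chromosome 24, 250513 to 259541), a receptor of the SLIT pathway that steers axons across the midline, had 387 counts in PGC replicate 2 and 39 counts in PGC replicate 3, against 1 count in the ESC library. Its difference of 9.79-fold between the PGC libraries (95% interval 7.36 to 14.6) was the second largest on this side, and it was called higher in PGCs (edgeR adjusted p = 0.00740). EPHB6, an ephrin receptor without kinase activity, had 36.9 and 10.9 CPM, against 7.93 CPM in the ESC library (edgeR adjusted p = 0.0987). The other two were highest in the ESC library. DRAXIN, a secreted repellent of growing axons, had 9.11 and 2.35 CPM, against 43.8 CPM in the ESC library, and fell by 3.29 ± 0.52 on the log2 scale in PGCs (SE, edgeR adjusted p = 0.000947). PLXNA2, a semaphorin receptor, had 6.23 and 1.67 CPM, against 13.2 CPM in the ESC library (log2 difference −2.10 ± 0.57 SE, edgeR adjusted p = 0.0153).

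Genes known from signalling in blood cells and from antiviral defence formed a group of 4, all below both PGC libraries in the ESC library and all called higher in PGCs. DOCK2 (ENSGALG00000002080, chromosome 13, 3962515 to 4122445), which activates the GTPase Rac in leukocytes, had 88.9 CPM in PGC replicate 2 and 25.1 CPM in PGC replicate 3 (1756 and 512 counts), against 2 counts in the ESC library (edgeR adjusted p = 0.000170). PRKCQ, the protein kinase C of T cell receptor signalling, had 44.9 and 11.96 CPM, against 2.92 CPM in the ESC library (log2 difference 2.92 ± 0.67 SE, edgeR adjusted p = 0.00667). STAP1, an adaptor known from B cells, had 7.39 and 2.21 CPM, against 0.340 CPM in the ESC library (edgeR adjusted p = 0.0113). None of the 3 was near the ESC level in either PGC culture.

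The other member of that group, ZC3HAV1 (ENSGALG00000013911, chromosome 1, 71466683 to 71492236), encodes the zinc finger antiviral protein, which binds CpG-rich viral RNA. It was the most abundant gene higher in PGC replicate 2, with 198.5 CPM and 53.8 CPM in PGC replicates 2 and 3, against 16.7 CPM in the ESC library. The log2 difference from ESCs was 2.56 ± 0.60 (SE, edgeR adjusted p = 0.00766), and DESeq2 did not call it (adjusted p = 0.133). On the list of 15 eligible interferon and RNA sensing genes none was 3-fold apart, and the median log2 ratio was 0.25. As to leukocytes themselves, 11 marker genes summed to 61.9 CPM in PGC replicate 2 and 42.7 CPM in PGC replicate 3, against 41.0 CPM in the ESC library, with 3 of the 11 at 3 counts or fewer in PGC replicate 3. The 4 eligible leukocyte markers were all higher in PGC replicate 2, as were 68.0% of all eligible genes, with a median log2 ratio of 0.72. Against the median of all genes 3 of these markers lay above and 1 below. PTPRC had 14.7 and 13.3 CPM, against 2.97 CPM, and SPI1 0.253 and 0 CPM, against 0.292 CPM. The part of leukocytes in these values was not tested.

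Receptor, channel and synapse genes higher in PGC replicate 2 were of low abundance. GRM8, a metabotropic glutamate receptor, had 8.40 and 1.27 CPM in PGC replicates 2 and 3, against 1 count in the ESC library, a 6.19-fold difference between the PGC libraries (95% interval 4.34 to 10.4). It was called higher in PGCs (edgeR adjusted p = 0.00902), as was TRPM8, the cold-sensing channel, with 6.23 and 1.96 CPM, against 0.194 CPM (edgeR adjusted p = 0.00803). BRSK2, a kinase of neuronal polarity, had 6.33 and 1.62 CPM, against 1.22 CPM in the ESC library. DOK7, an activator of the muscle receptor kinase at the neuromuscular junction, had 5.87 and 1.57 CPM, against 1.26 CPM. These last were not called (edgeR adjusted p = 0.184 and 0.225), and their level in PGC replicate 3 was close to that of the ESC library.

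**Figure D3:**
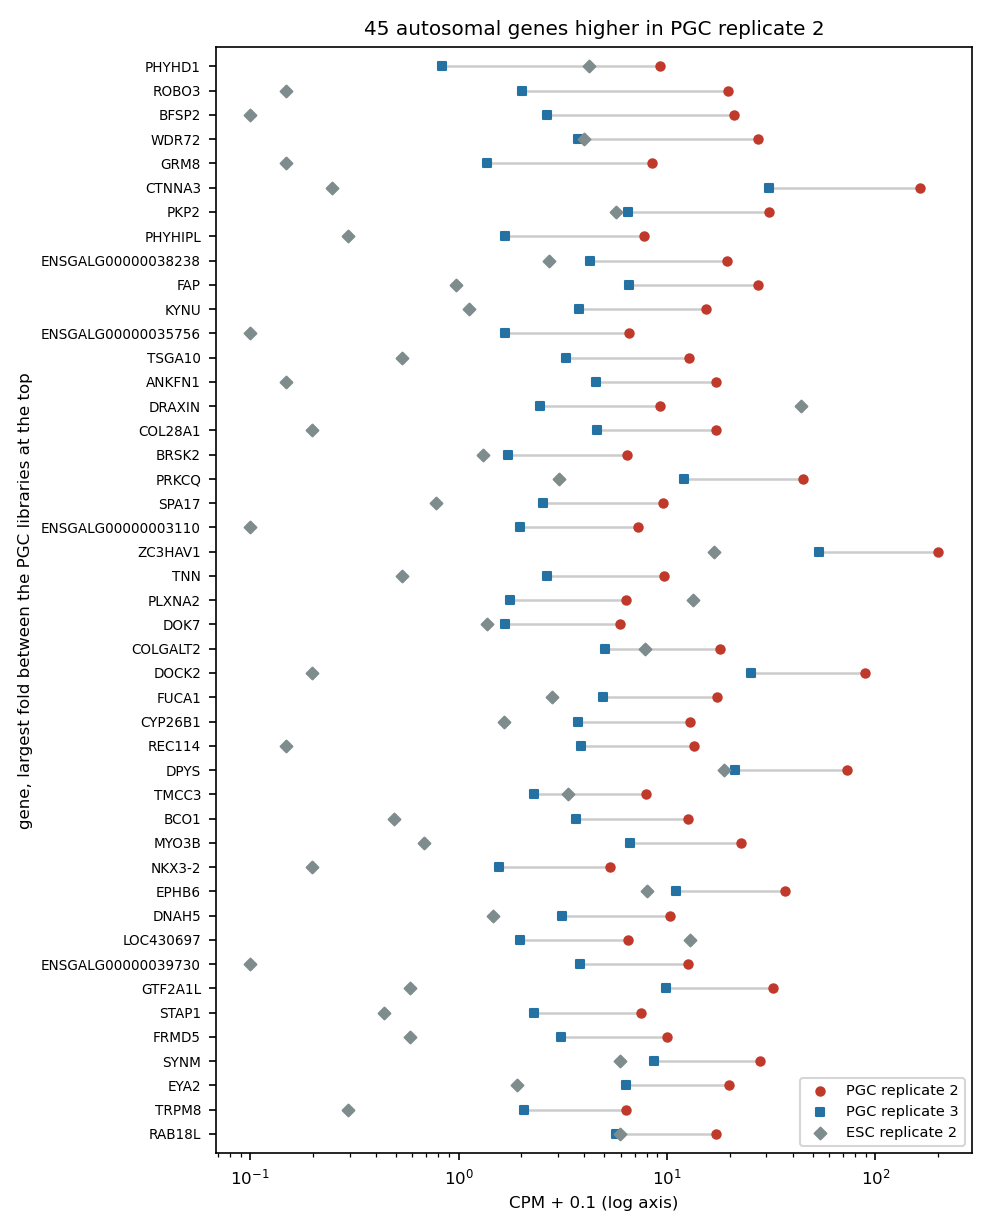
Of the 46 autosomal genes higher in PGC replicate 2, 45 are shown, ordered by the fold between the PGC libraries with the largest, PHYHD1 (11.0-fold), at the top. Points give CPM with 0.1 added on a log axis in PGC replicate 2 (circles), PGC replicate 3 (squares) and the ESC library (diamonds), 1 library each without error bars, and the ESC library lies left of both PGC libraries for 37 of those shown.

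A group of 7 genes higher in PGC replicate 2 held enzyme genes and PHYHIPL, named for a partner of an enzyme. Of these, 4 were called higher in PGCs and none lower, against 60.9% and 6.52% of all 46 genes on this side. PHYHD1 (ENSGALG00000042266, chromosome 17, 5857678 to 5863488), related to the peroxisomal enzyme of phytanic acid breakdown, showed the largest difference between the PGC libraries on this side, at 11.0-fold (95% interval 7.32 to 22.6). It had 9.11 CPM in PGC replicate 2 and 0.735 CPM in PGC replicate 3 (180 and 15 counts), against 4.13 CPM in the ESC library, which lay between them (log2 difference −0.12 ± 0.95 SE, edgeR adjusted p = 0.926). PHYHIPL, whose name refers to a protein that interacts with the same enzyme, had 7.70 and 1.57 CPM, against 0.194 CPM in the ESC library (4.17 ± 1.09 SE, edgeR adjusted p = 0.0129). The spread between the PGC libraries was thus wider for PHYHD1 than its distance to the ESC library.

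DPYS, dihydropyrimidinase of pyrimidine breakdown, was the most abundant of these enzymes, with 73.0 and 21.0 CPM, against 18.6 CPM in the ESC library (log2 difference 0.98 ± 0.53 SE, edgeR adjusted p = 0.160). KYNU, kynureninase of tryptophan breakdown, had 15.3 and 3.68 CPM, against 1.02 CPM (2.85 ± 0.80 SE, edgeR adjusted p = 0.0174), and FUCA1, a lysosomal fucosidase, 17.3 and 4.85 CPM, against 2.72 CPM (1.67 ± 0.66 SE, edgeR adjusted p = 0.0652). KYNU passed the threshold and FUCA1 missed it, while PGC replicate 3 and the ESC library had like levels of DPYS.

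Both remaining enzymes act on retinoids. CYP26B1 (ENSGALG00000016102, chromosome 4, 90736410 to 90740599), which clears retinoic acid, had 12.9 CPM in PGC replicate 2 and 3.63 CPM in PGC replicate 3, against 1.56 CPM in the ESC library (log2 difference 2.05 ± 0.71 SE, edgeR adjusted p = 0.0413). BCO1, which cleaves beta-carotene to retinal, had 12.5 and 3.58 CPM, against 0.389 CPM (3.99 ± 0.85 SE, edgeR adjusted p = 0.00479). The related enzymes of retinoic acid clearance ran against CYP26B1 between the PGC cultures. CYP26A1 had 16.9 and 38.4 CPM, against 0.583 CPM in the ESC library, and CYP26C1 had 3.39 and 8.28 CPM, against 1 count, neither of them 3-fold apart. On the list of 12 eligible retinoic acid genes the median log2 ratio was 0.37 and CYP26B1 alone was 3-fold apart. ALDH1A2, which makes retinoic acid, had 74.5 and 39.7 CPM, against 13.0 CPM, and 7 of the 12 genes were called higher in PGCs and 4 lower.

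Transcription regulators made up 3 of the genes higher in PGC replicate 2. EYA2, a coactivator and phosphatase of SIX-family proteins, had 19.6 and 6.27 CPM, against 1.80 CPM in the ESC library (log2 difference 2.49 ± 0.65 SE, edgeR adjusted p = 0.0125). NKX3-2, a homeobox factor of the developing skeleton, had 5.21 and 1.47 CPM, against 2 counts in the ESC library (edgeR adjusted p = 0.00845). LOC430697, described in the authors' table as Kruppel-like factor 8, had 6.38 and 1.86 CPM, against 12.7 CPM, and was called lower in PGCs (−1.98 ± 0.55 SE, edgeR adjusted p = 0.0169). The ESC level was thus below both PGC cultures for EYA2 and NKX3-2 and above both for the Kruppel-like factor.

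Other named genes higher in PGC replicate 2 included WDR72, a WD repeat protein known for enamel formation, with 27.1 and 3.63 CPM, against 3.89 CPM in the ESC library. It was 7.29-fold apart (95% interval 5.85 to 9.66), and PGC replicate 3 and the ESC library held like counts (74 and 80). RAB18L, similar to a Rab GTPase, and TMCC3, a membrane protein, also had the ESC library between the PGC libraries. ANKFN1 had 17.1 and 4.46 CPM, against 1 count in the ESC library (edgeR adjusted p = 0.00112). Of the 4 genes without a name, 3 had 0 counts in the ESC library and were called higher in PGCs, by at least 27.6-fold, 31.0-fold and 55.5-fold in the PGC mean against the floor of 3 counts.

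On the side of PGC replicate 3, matrix and adhesion genes included the most abundant gene of all 86. COL1A2 (ENSGALG00000009641, chromosome 2, 23601205 to 23640175), a chain of type I collagen, had 58.2 CPM in PGC replicate 2 and 334 CPM in PGC replicate 3 (1150 and 6813 counts), against 34.1 CPM in the ESC library. It was 5.73-fold apart between the PGC libraries (95% interval 5.39 to 6.11). Its log2 difference from ESCs was 2.26 ± 0.82 (SE, edgeR adjusted p = 0.0495), a call that DESeq2 did not make (adjusted p = 0.355). The level in PGC replicate 2 was much nearer to the ESC library than to PGC replicate 3.

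Fibroblasts are the usual source of type I collagen, and 14 of their markers summed to 1056 CPM in PGC replicate 2 and 1402 CPM in PGC replicate 3, against 382.8 CPM in the ESC library. These sums include COL1A2 itself, at 58.2 and 334 CPM in PGC replicates 2 and 3, against 34.1 CPM in the ESC library. COL3A1, a collagen often made with type I, went the other way between the PGC libraries, with 646 and 411 CPM, against 11.5 CPM. VIM had 241 and 577 CPM, against 220.3 CPM. Of the 6 eligible markers on the list 4 had a positive log2 ratio and 2 a negative one, and their median was 0.25. Some markers of the list were under 1 CPM in both PGC libraries, among them PDGFRA with 0.658 and 0.882 CPM and DCN with 0.0506 and 0.245 CPM. TWIST1 had 1 count and 0 counts, and TWIST2 had 0 counts and 1 count. Of the 14 markers 3 were at 3 counts or fewer in PGC replicate 2 and 2 in PGC replicate 3. The part of fibroblasts in the level of COL1A2 was not tested. On the list of 37 eligible matrix and adhesion genes the median log2 ratio was 0.01, with 13 genes above the median of all genes and 24 below it, and COL1A2 and SPARC were the only ones 3-fold apart.

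SPARC, a matrix protein that binds collagen, had 23.7 and 75.5 CPM in PGC replicates 2 and 3, against 87.6 CPM in the ESC library (log2 difference −1.10 ± 0.52 SE, edgeR adjusted p = 0.114). TGFBI, a secreted adhesion protein induced by TGF-beta, had 34.3 and 111 CPM, against 31.7 CPM (0.92 ± 0.57 SE, edgeR adjusted p = 0.218). PGC replicate 3 was therefore the culture near the ESC library for SPARC, and PGC replicate 2 for TGFBI. The neural adhesion genes also parted. CHL1, a member of the L1 family, had 10.2 and 40.8 CPM, against 1.26 CPM in the ESC library, and was called higher in PGCs (4.06 ± 0.85 SE, edgeR adjusted p = 0.00439). NLGN4X, a neuroligin of synapses, had 2.53 and 9.07 CPM, against 20.7 CPM, and was called lower (−2.11 ± 0.59 SE, edgeR adjusted p = 0.0168).

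NLGN4X was an exception among synapse genes, as was GRIA1. On the list of 17 eligible neuronal signalling and synapse genes the median log2 ratio was 0.50, on the side of PGC replicate 2, and 13 genes lay above the median of all genes. GRIA1, a subunit of AMPA glutamate receptors, had 1.52 and 6.18 CPM, against 0.632 CPM in the ESC library (edgeR adjusted p = 0.0673). The related subunit genes GRIA2, with 31.4 and 24.7 CPM, against 1.31 CPM, and GRIA3, with 9.37 and 5.39 CPM, against 1.12 CPM, were on the other side. Of the 17 genes 12 were called higher in PGCs and 2 lower.

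Intracellular signalling genes higher in PGC replicate 3 included the phosphatases that ERK induces and that shut it off again. DUSP6 (ENSGALG00000011207, chromosome 1, 43288467 to 43292808) had 7.04 CPM in PGC replicate 2 and 26.2 CPM in PGC replicate 3 (139 and 534 counts), against 19.4 CPM in the ESC library (log2 difference −0.50 ± 0.60 SE, edgeR adjusted p = 0.527). DUSP4 had 4.35 and 13.3 CPM, against 10.02 CPM (−0.46 ± 0.58 SE, edgeR adjusted p = 0.546). For both, the ESC library lay between the PGC cultures, and the fitted difference was smaller than its error.

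Other genes of the FGF and MAPK list leaned the same way without reaching 3-fold. Of its 18 eligible genes 15 lay below the median of all genes in their ratio, that is, towards PGC replicate 3. The median log2 ratio was −0.42, or −0.57 with TMM factors. The 15 genes and both medians include DUSP6 and DUSP4, which the rule had chosen. ETV5, an ETS factor that FGF induces, had 9.67 and 24.3 CPM, against 43.8 CPM in the ESC library, and ETV4 had 18.9 and 37.6 CPM, against 13.8 CPM. FOS was the clearest exception, with 14.3 and 7.30 CPM, against 33.4 CPM, whereas EGR1 had 37.6 and 39.6 CPM, against 14.5 CPM. The receptors moved little, with FGFR1 at 27.9 and 36.1 CPM, against 61.4 CPM, and FGFR3 at 43.6 and 38.6 CPM, against 39.6 CPM. Against ESCs, 2 of the 18 were called higher in PGCs and 9 lower.

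TAGAP (ENSGALG00000013747, chromosome 3, 52365943 to 52372134), a GTPase-activating protein named for its expression in activated T cells, had the largest difference of all 86 genes. It had 24 counts in PGC replicate 2 and 403 counts in PGC replicate 3, against 10 counts in the ESC library, or 1.22 and 19.8 CPM, against 0.486 CPM. The fold between the PGC libraries was 15.1 (95% interval 10.8 to 25.7). The difference from ESCs rested mostly on PGC replicate 3 (log2 difference 4.16 ± 1.45 SE, edgeR adjusted p = 0.0426) and was not called by DESeq2 (adjusted p = 0.179).

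SGK1, a kinase regulated by hormones and osmotic stress, was far lower in both PGC cultures than in the ESC library. It had 1.57 and 6.57 CPM, against 303 CPM, a log2 difference of −6.50 ± 0.58 (SE, edgeR adjusted p = 3.87e-05). The 3.99-fold difference between the PGC libraries was thus small beside the 74.5-fold excess of the ESC library over the PGC mean. DOK5, an adaptor of receptor tyrosine kinases, had 4.40 and 21.9 CPM, against 3.35 CPM in the ESC library (1.70 ± 0.81 SE, edgeR adjusted p = 0.116). RASD1, a Ras-like protein induced by glucocorticoids, had 2.94 and 13.0 CPM, against 2.72 CPM (1.28 ± 0.79 SE, edgeR adjusted p = 0.214). For DOK5 and RASD1, PGC replicate 2 was at about the ESC level.

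Of 5 receptor and ligand genes higher in PGC replicate 3, 2 were called higher in PGCs and 1 lower. Of all 40 genes on this side 22.5% were called higher and 27.5% lower. EDNRB (ENSGALG00000016912, chromosome 1, 153918344 to 153932319), the endothelin receptor of neural crest cells, had 6.23 and 26.9 CPM, against 54.5 CPM in the ESC library (log2 difference −1.99 ± 0.61 SE, edgeR adjusted p = 0.0249), a call that DESeq2 did not make (adjusted p = 0.357). ACKR3, a scavenger of the chemokine CXCL12 that guides migrating PGCs, had 7.14 and 24.5 CPM, against 5.20 CPM (1.33 ± 0.66 SE, edgeR adjusted p = 0.129). CXCL12 itself, just outside the threshold, had 539 and 1586 counts, against 1236 counts. The chemokine and its scavenger were thus both lower in PGC replicate 2 than in PGC replicate 3.

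GPR160, an orphan receptor, had 11.9 and 40.1 CPM in PGC replicates 2 and 3, against 5.88 CPM in the ESC library (log2 difference 1.87 ± 0.65 SE, edgeR adjusted p = 0.0418). ADMP (ENSGALG00000037408, chromosome 28, 885913 to 888150), a BMP-type ligand known from the frog organizer, had 36 and 125 counts, against 0 counts, and was at least 27.3-fold higher in the PGC mean than the floor of 3 counts in the ESC library (edgeR adjusted p = 0.00330). ADMP was the only gene on this side with no ESC count.

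**Figure D4:**
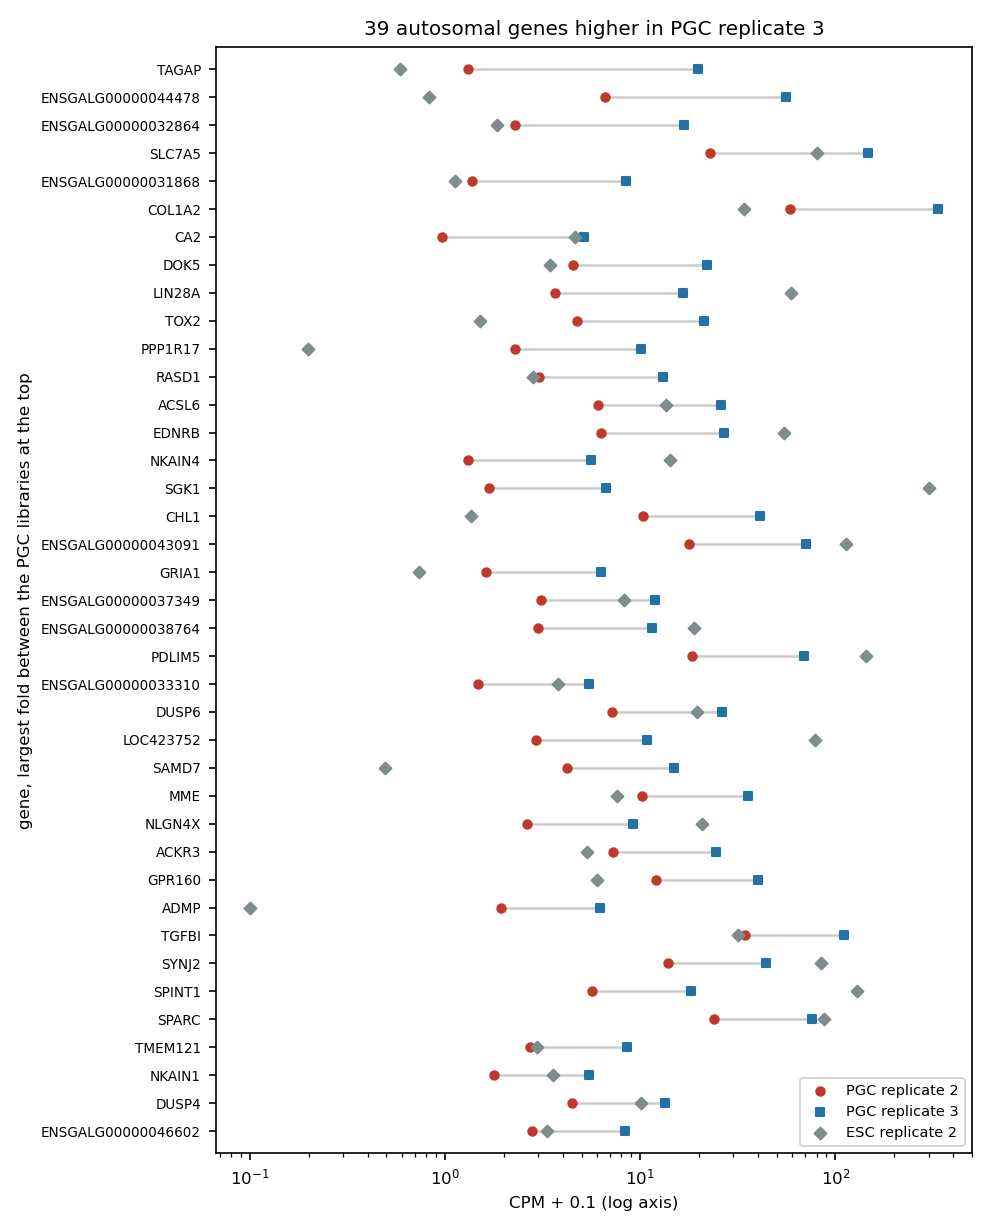
Of the 40 autosomal genes higher in PGC replicate 3, 39 are shown, ordered by the fold between the PGC libraries with the largest, TAGAP (15.1-fold), at the top. Points give CPM with 0.1 added on a log axis in PGC replicate 2 (circles), PGC replicate 3 (squares) and the ESC library (diamonds), 1 library each without error bars, and the ESC library lies left of both PGC libraries for 17 of those shown, between them for 10 and right of both for 12.

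Early embryo and transcription regulators were also among the genes higher in PGC replicate 3. LIN28A (ENSGALG00000036022, chromosome 23, 175670 to 186981), an RNA-binding protein that blocks let-7 maturation, had 3.54 CPM in PGC replicate 2 and 16.4 CPM in PGC replicate 3 (70 and 334 counts), against 58.8 CPM in the ESC library. The fitted log2 difference from ESCs was −2.83 ± 0.62 (SE, edgeR adjusted p = 0.00544), without a call by DESeq2 (adjusted p = 0.180). Its paralog LIN28B was level between the PGC cultures, with 28.5 and 28.6 CPM, against 89.0 CPM. LIN28A was thus lowest in PGC replicate 2 and highest in the ESC library. TOX2, an HMG box factor, was lowest in the ESC library, with 4.66 and 21.1 CPM, against 1.41 CPM, and was called higher in PGCs (2.92 ± 0.87 SE, edgeR adjusted p = 0.0227).

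The other pluripotency and early embryo factors leaned towards PGC replicate 3 as well. Of 15 eligible genes 14 had a negative log2 ratio, which also held with TMM factors, and the median was −0.85, the lowest of the 19 lists. The 15 include LIN28A, and 2 of them were 3-fold apart and so chosen by the rule. SALL4 had 134 and 360.4 CPM, against 839 CPM in the ESC library, TRIM71 had 23.2 and 53.5 CPM, against 92.1 CPM, and OTX2 had 11.1 and 29.9 CPM, against 12.7 CPM. SALL4, TRIM71 and OTX2 did not reach 3-fold. NANOG, with 225.5 and 300.5 CPM, against 208 CPM, moved less. TFCP2L1 was the exception, with 23.6 and 10.5 CPM, against 1.46 CPM. Of the 15 genes 2 were called higher in PGCs and 7 lower.

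**Figure D5:**
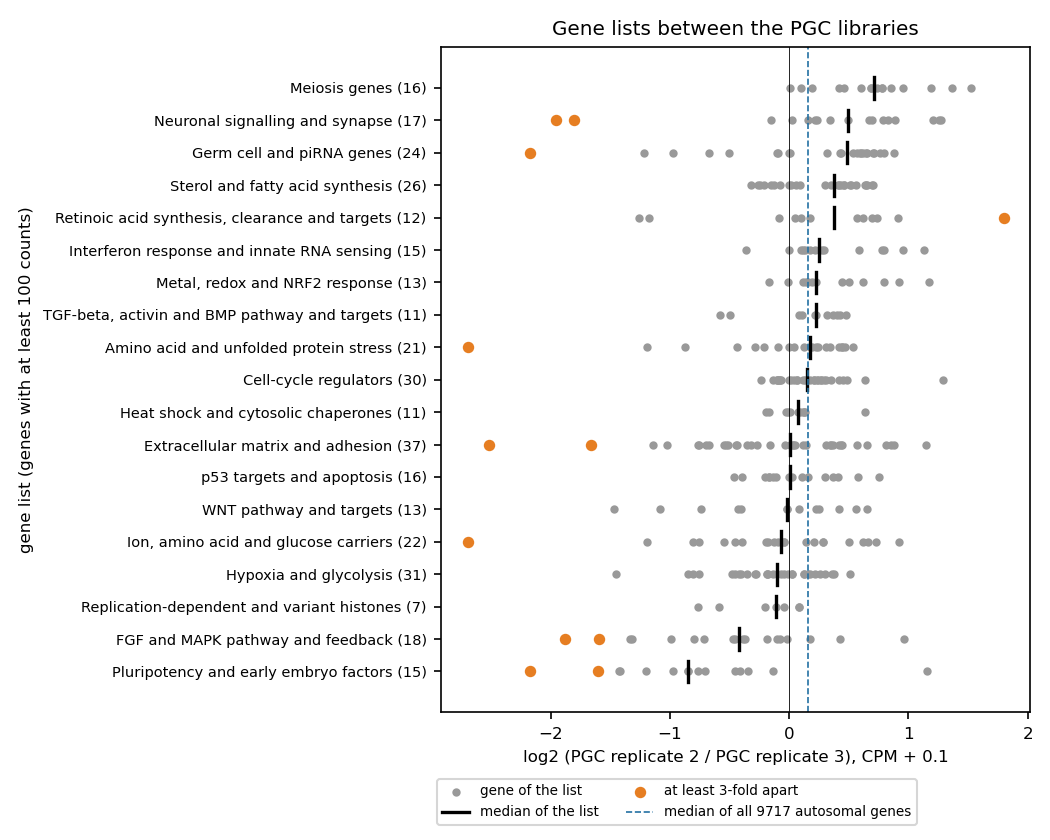
Log2 ratio of PGC replicate 2 over PGC replicate 3 (CPM with 0.1 added, horizontal axis) for the genes of 19 lists with at least 100 counts in the higher PGC library, with the number of genes in brackets. Grey points are genes, orange points genes at least 3-fold apart, black bars list medians and the dashed line the median of 9717 autosomal genes (0.15); the meiosis list has the highest median (0.71) and the pluripotency list the lowest (−0.85).

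Transporter and enzyme genes higher in PGC replicate 3 mostly had the ESC library between the PGC cultures, as was so for 4 of the 7. That share was 25% over all 40 genes on this side. Over eligible genes with any excess in PGC replicate 3 it was 9.3%, but the rule asks for a wide gap, which leaves more room between the PGC libraries. SLC7A5 (ENSGALG00000005845, chromosome 11, 18186088 to 18218511), the carrier that brings leucine and other large amino acids into cells, had 22.6 and 147 CPM in PGC replicates 2 and 3 (447 and 2999 counts), against 80.1 CPM in the ESC library. The fold between the PGC libraries was 6.47 (95% interval 5.88 to 7.19), and the log2 difference from ESCs was −0.18 ± 0.76 (SE, edgeR adjusted p = 0.863). It was the only 1 of 21 amino acid and unfolded protein stress genes, and of 22 ion, amino acid and glucose carriers, to be 3-fold apart, and the medians of these lists were 0.17 and −0.07.

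CA2, a carbonic anhydrase, had 0.861 and 5.05 CPM, against 4.52 CPM in the ESC library, and ACSL6, which activates fatty acids, had 5.97 and 25.9 CPM, against 13.4 CPM. Neither was called between PGCs and ESCs (edgeR adjusted p = 0.395 and 0.981). NKAIN4 and NKAIN1 both encode partners of the sodium pump. NKAIN4 had 1.22 and 5.49 CPM, against 14.1 CPM in the ESC library, and was called lower in PGCs (log2 difference −2.34 ± 0.67 SE, edgeR adjusted p = 0.0187), while NKAIN1 had 1.67 and 5.34 CPM, against 3.45 CPM (edgeR adjusted p = 0.780). Both family members thus varied in the same direction between the PGC cultures.

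The proteolysis genes of the group parted against ESCs. SPINT1, an inhibitor of serine proteases on epithelial cells, had 5.57 and 18.0 CPM, against 129 CPM in the ESC library (log2 difference −3.74 ± 0.52 SE, edgeR adjusted p = 0.000471). MME, the membrane peptidase neprilysin, had 10.1 and 35.5 CPM, against 7.49 CPM (1.33 ± 0.64 SE, edgeR adjusted p = 0.120). Beside SPINT1, the 9 epithelial markers summed to 174 and 262.5 CPM in PGC replicates 2 and 3, against 1984 CPM in the ESC library, with EPCAM at 125 and 211 CPM, against 969 CPM. KRT5 was at 1 count and 0 counts in the PGC libraries. The part of these markers in the level of SPINT1 was not tested.

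Among the other named genes higher in PGC replicate 3, 2 were called higher in PGCs and 3 lower. PPP1R17, a phosphatase inhibitor of cerebellar neurons, had 43 and 203 counts, against 2 counts in the ESC library (edgeR adjusted p = 0.00637), and SAMD7, a repressor of photoreceptor cells, had 81 and 300 counts, against 8 counts (edgeR adjusted p = 0.00529). Both are tissue-restricted genes that the ESC library hardly held. PDLIM5, an actin-associated LIM protein, had 18.4 and 69.3 CPM, against 143 CPM in the ESC library, and SYNJ2, an inositol phosphatase of membrane traffic, had 13.7 and 44.1 CPM, against 83.9 CPM. They were called lower in PGCs by edgeR (adjusted p = 0.0186 and 0.0188) and not by DESeq2 (adjusted p = 0.323 and 0.321). LOC423752, uncharacterized in the authors' table, had 2.84 and 10.7 CPM, against 78.7 CPM (log2 difference −3.82 ± 0.56 SE, edgeR adjusted p = 0.000630).

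A further 8 genes on this side had no name. The most variable, ENSGALG00000044478 (chromosome 1, 41740334 to 41838759), had 129 counts in PGC replicate 2 and 1143 counts in PGC replicate 3, against 15 counts in the ESC library, an 8.46-fold difference between the PGC libraries. ENSGALG00000031868 lies within its span on the other strand and had 25 and 170 counts, against 21 counts. Whether counting used strand is not given in the sources used here, so reads of such a pair may not be told apart.

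Neighbouring genes sometimes varied together. Of the 86 genes, 6 (6.98%) had another of the 86 as the next eligible gene on the chromosome, against 1.74% of all eligible genes, and these formed 3 pairs that each varied in the same direction. Among them were the nested pair just described and ANKFN1 with the unnamed ENSGALG00000003110, which lie 3049 bases apart on the same strand of chromosome 18. Whether ANKFN1 and ENSGALG00000003110 are separate transcripts was not tested. ENSGALG00000003110 had 142 and 38 counts in PGC replicates 2 and 3, against 0 counts in the ESC library. Within 1 Mb there were 11 pairs of consecutive genes of the 86, 9 in the same direction, and these include the 3 pairs above. The like share over all eligible genes was not taken, so no excess can be read from these counts. Among them were GPR160 with SAMD7 on chromosome 9, ROBO3 with SPA17 on chromosome 24, SYNJ2 with TAGAP on chromosome 3 and LIN28A with NKAIN1 on chromosome 23. ACKR3 and TRPM8 on chromosome 7 varied in opposite directions, as did LOC430697 and ENSGALG00000046602 on chromosome 4.

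The genes were spread over 23 of the 32 autosomal sequences that held eligible genes, most of them on chromosome 1 (15 of 1367 genes) and chromosome 4 (11 of 776). Genes higher in PGC replicate 2 spanned a median of 27.0 kb and those higher in PGC replicate 3 a median of 12.6 kb, against 14.6 kb for all eligible genes. Their exon lengths differed less, with medians of 2480 and 2082 bases, against 2160 bases.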

How the data were processed

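RNA was extracted with TRIzol, and the authors aligned reads with TopHat and Bowtie to galGal5 Ensembl transcripts and counted them per gene with featureCounts. Per the submitters' processing notes bcl2fastq 1.8.4 and MultiQC 1.7 were also used. The strand setting is not given in the sources used here. The authors deposited whole-number counts with exon coordinates, and a second table with a normalized signal (in 100% of values, the count over a constant of the library) and with their own fold changes and p-values, which were not used. A further 4 columns of per-sample values matched no sample label and were not used.

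CPM was the count divided by the column total, multiplied by 1000000. Genes with at least 10 counts in any library were fitted with edgeR 4.0.16 (quasi-likelihood test, TMM factors 1.13, 1.02 and 0.864, 1 residual and 8.92 prior degrees of freedom, Benjamini-Hochberg adjustment over 14489 genes) in R 4.3.3, with DESeq2 1.42.0 as an alternative. The SE of a log2 difference was taken as the size of the fitted difference divided by the square root of its F statistic. The fit was run on simulated data that gave every gene the same spread. Its behaviour for genes chosen to be far apart between the PGC libraries was not tested. Names came from the authors' table (63 of 86 genes) or, by NCBI gene number, from RefSeq GRCg7b (11), and 12 genes had none. Genes named in the text were those on a list, with the 15 largest ratios or the 10 highest levels in either direction, beside the threshold or next to another such gene, and others of the 86 to describe their group. The members and lists were chosen with earlier results of these data known, and the groups by role were formed after the genes had been seen. Of the 86 genes, 2 enter the counts but are not reported by name here.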

Additional observations from a re-analysis of the deposited data

How the results depend on the processing

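The number of genes depended on the rule. A 2-fold threshold gave 427 genes (308 higher in PGC replicate 2 and 119 in PGC replicate 3) and a 4-fold threshold 26 (11 and 15). A minimum of 50 counts gave 131 (82 higher in PGC replicate 2), a minimum of 500 counts 25 (11 and 14), and 1 CPM added in place of 0.1 gave 55 (27 higher in PGC replicate 2), these by the construction of the rule. TMM scaling (86 genes) and leaving out mitochondrial genes (86 genes) kept the number. The authors' size factors (84 genes) were an alternative chosen after seeing the data. All 86 log2 ratios kept their direction under TMM factors, without mitochondrial genes, with the authors' size factors and with 1 CPM added. None of these settings could have reversed a ratio of at least 3-fold, so that outcome was fixed by the rule. With either PGC library left out, the median log2 ratio to the ESC library was −1.08 or 0.91 for genes higher in PGC replicate 3. For genes higher in PGC replicate 2 it was 1.88 or 3.84. Shifts of this kind are also set by the rule. Genes called between PGCs and ESCs numbered 45 with DESeq2 size factors in edgeR, 44 with DESeq2 and 56 without a filter, against 51. No paired analysis was possible because the PGC and ESC libraries used here share 1 replicate number only. Spread among ESCs was not measured, since only 1 ESC library carried a sample label and was used. The minimum of 100 counts set the lowest level of the higher PGC library at 5.06 CPM in replicate 2 and 4.90 CPM in replicate 3.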

Other observations

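Chromosome 24 stood apart in the ratio between the PGC libraries. Its 96 eligible genes had a median log2 ratio of 0.45, against 0.15 over all eligible genes, and 82 of the 96 (85.4%) lay above that overall median. Among the 28 chromosomes with at least 50 eligible genes the next highest median was 0.21 and the lowest −0.02. Only ROBO3 and SPA17 of its genes were 3-fold apart, both higher in PGC replicate 2. The pattern was noticed after the data had been seen and was not tested.

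Among lists without a gene 3-fold apart, sterol and fatty acid synthesis genes had a median log2 ratio of 0.38 between the PGC libraries over 26 genes, of which 15 lay above the median of all genes. Against ESCs 3 of them were called higher and 21 lower in PGCs by edgeR. Hypoxia and glycolysis genes had a median of −0.10 over 31 genes, and 23 of them lay below the median of all genes. The cell-cycle regulators, with a median of 0.15 over 30 genes, were level with all genes. The TGF-beta, activin and BMP list had a median of 0.22, the WNT list −0.01, heat shock and chaperone genes 0.08, p53 targets 0.01, metal and redox genes 0.23 and histones −0.11. Markers of other cell types were summed as well. Levels in PGC replicates 2 and 3 were 65.9 and 84.4 CPM for endothelial markers, against 73.6 CPM in the ESC library, 126 and 81.3 CPM for gonadal somatic markers, against 54.8 CPM, and 33.2 and 20.1 CPM for muscle markers, against 29.2 CPM. Erythroid markers summed to 19.6 and 20.1 CPM, against 43.0 CPM, endoderm markers to 26.8 and 17.5 CPM, against 97.3 CPM, and neural markers to 758 and 776 CPM, against 144 CPM, of which ELAVL4 gave 563 and 470.4 CPM, against 15.1 CPM.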
